A study of Mus musculus with 12 samples.

Results

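Fatty acids made by a cell are saturated chains of fixed length until desaturases put double bonds into them and elongases lengthen them. The genes described here encode 8 such enzymes: the stearoyl-CoA desaturases Scd1 and Scd2, the fatty acid desaturases Fads1, Fads2 and Fads3, and the elongases Elovl1, Elovl5 and Elovl6. They were chosen by gene symbol from a table of molecule counts, in which all 8 were found among 11022 genes, and all 8 were among the 9378 genes that passed a filter on low counts. Stearoyl-CoA desaturase makes the monounsaturated fatty acids that adipocytes store as triglyceride. Fads2 and Fads1 act in sequence, with Elovl5 between them, to turn dietary polyunsaturated precursors into longer and less saturated products such as arachidonate. Elovl6 extends palmitate towards stearate, the preferred substrate of stearoyl-CoA desaturase, and Elovl1 makes very long chains for sphingolipids.

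RNA was taken from 3T3-L1, an established mouse preadipocyte line that is wild-type in genotype per the labels, in 4 groups of 3 libraries. Undifferentiated cells were preadipocytes grown in 10% calf serum. Regular cells were differentiated in 10% fetal bovine serum, for the first 2 days with rosiglitazone (2 µM), dexamethasone (1 µM), insulin (1 µg/mL) and 3-isobutyl-1-methylxanthine (0.5 mM), then for 2 days with insulin as the sole inducer, and then in maintenance medium. WT CM and KO CM cells went through the same steps in an equal mix with medium conditioned by WEP breast cancer cells, either p53 wild-type or p53 knockout, so the differentiation media were diluted in both of these groups and not in regular cells. Only the WEP cells that gave the medium carried the knockout, and the serum differed between undifferentiated and differentiated cells. Since no label ties the replicates of a group to separate cultures, p-values measure the spread of these libraries alone, and that spread may be technical.

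Library totals were 987496 to 2589045 UMIs (molecular identifiers, each counting 1 RNA molecule at its 3′ end whatever its length), and the KO CM libraries, at 987496 to 1376688, were the shallowest group. WT CM replicate 3 stood apart from the other WT CM libraries, with a chi-square per degree of freedom over genes of 5.54 and 5.24 against 1.38 to 2.54 between the other pairs within a group, and results that move without it are marked. The labels were compared with marker genes: 8 adipocyte markers (Adipoq, Fabp4, Plin1 and others) summed to 110 to 141 CPM (UMIs scaled to library size) in undifferentiated cells, 30935 to 33012 in regular, 19393 to 19749 in WT CM and 9625 to 11081 in KO CM cells. A list of 8 preadipocyte and fibroblast markers summed to 8100 to 9410, 3081 to 3238, 8344 to 9194 and 9747 to 10314 CPM. Of these, Cd34 was barely counted in any group, at 13, 4, 0 and 1 UMIs per group in the same order. Fn1 and Col3a1, at 4090 and 3622 CPM in undifferentiated cells, weigh most in the sum of this list, and its members differ. Pdgfra stood at 56.7, 53.9, 205 and 297 CPM in undifferentiated, regular, WT CM and KO CM cells. Of 7 tested, 3 were higher and 2 lower with WT CM than in undifferentiated cells (27.9% and 20.7% of all tested genes). With KO CM 4 were higher and 2 lower (26% and 17.7%). Of the adipocyte markers, 8 of 8 rose on regular differentiation (29.6% of all tested genes). With WT CM and with KO CM 8 of 8 were lower than regular (15.4% and 21%). With KO CM 7 of 8 were lower than with WT CM (6.62%). Of the 7 tested preadipocyte and fibroblast markers, 5 fell on regular differentiation (28%). Against regular cells, 6 were higher with WT CM (17.2%) and 7 with KO CM (22.2%). Of 11 epithelial markers 5 were counted, and Epcam and Cdh1 were not among the 11022 genes. The 5 summed to 19.8 to 26.1 CPM in undifferentiated, 53.9 to 68.6 in regular, 35.3 to 54.1 in WT CM and 37.7 to 42.6 in KO CM cells. Krt8 and Krt18 gave 20.8 and 29.0 CPM of the sum in regular cells. Of 8 macrophage markers 5 were counted, at 20.1 to 31.2 CPM in undifferentiated and regular, 53.3 to 64.8 in WT CM and 88.0 to 120 CPM in KO CM cells. Cd14 gave 11.3, 14.5, 44.7 and 84.0 CPM of this in undifferentiated, regular, WT CM and KO CM cells, and Adgre1, Ptprc and Itgam were not among the 11022 genes. The part of these marker differences in the results below was not tested. Levels are CPM on library sizes scaled by TMM (a scaling between libraries from genes that change little), differences are log2 fold changes ± SE, and a gene was called higher or lower at an edgeR quasi-likelihood adjusted p under 0.05 over all genes tested.

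Of the 8 genes, 5 lie on mouse chromosome 19 in 2 clusters (GRCm38, GENCODE M21). Fads1 (10182888 to 10196877, plus strand) and Fads2 (10062765 to 10101746, minus strand) point away from each other across 81.1 kb, and Fads3 (10041569 to 10060110, plus strand) ends 2.65 kb from the end of Fads2. Scd2 (44293674 to 44306864, plus strand) and Scd1 (44394455 to 44407879, minus strand) are 87.6 kb apart. Elovl1 is on chromosome 4 (118428093 to 118432953, plus strand), Elovl5 on chromosome 9 (77917364 to 77984519, plus strand) and Elovl6 on chromosome 3 (129532355 to 129638495, plus strand). RefSeq promoters (GRCm38.p6, 250 bases before to 50 bases after the start site) were matched for 5 of the 8 genes, Fads2, Fads3, Elovl1, Elovl5 and Elovl6. Those of Fads2 (chr19:10101454-10101753, minus strand), which was called lower in every comparison among the differentiated groups, of its neighbour Fads3 (chr19:10041298-10041597, plus strand), which was called in none of them, and of Elovl6 (chr3:129532136-129532435, plus strand), the 1 gene that fell on regular differentiation, are shown 5′ to 3′. Capitals mark matches on either strand to the motifs CCAAT (NF-Y box), GGGCGG (GC box), CACGTG (E-box), TCACNCCAC (sterol regulatory element consensus) and AGGTCA (nuclear receptor half-site).
Fads2: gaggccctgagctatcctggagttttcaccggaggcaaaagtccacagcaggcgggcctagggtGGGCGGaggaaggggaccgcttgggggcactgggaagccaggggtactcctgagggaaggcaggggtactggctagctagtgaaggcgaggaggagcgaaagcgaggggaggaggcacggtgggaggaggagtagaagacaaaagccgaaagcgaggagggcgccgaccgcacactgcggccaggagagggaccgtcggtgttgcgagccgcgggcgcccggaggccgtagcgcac
Fads3: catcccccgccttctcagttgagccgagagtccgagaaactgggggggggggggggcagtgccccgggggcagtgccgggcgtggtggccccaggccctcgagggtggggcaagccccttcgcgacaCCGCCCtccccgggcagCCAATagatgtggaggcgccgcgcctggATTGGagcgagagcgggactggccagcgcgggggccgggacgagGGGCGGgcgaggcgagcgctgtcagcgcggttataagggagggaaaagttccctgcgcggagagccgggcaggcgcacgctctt
Elovl6: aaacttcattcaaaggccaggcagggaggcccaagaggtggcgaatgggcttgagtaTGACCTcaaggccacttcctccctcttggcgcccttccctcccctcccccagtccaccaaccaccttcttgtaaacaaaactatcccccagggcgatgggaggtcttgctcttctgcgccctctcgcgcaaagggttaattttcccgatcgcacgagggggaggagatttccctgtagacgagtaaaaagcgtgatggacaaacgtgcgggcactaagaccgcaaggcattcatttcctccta
The Fads2 window held 1 GC box and no other match. Fads3 held 2 CCAAT matches and 2 GC boxes, and Elovl6 held 1 nuclear receptor half-site. Elovl5, not shown, held 2 CCAAT matches and 1 E-box. Elovl1, also not shown, had 2 windows. The first held 1 CCAAT match and 5 GC boxes, and the second 2 GC boxes and 1 nuclear receptor half-site. Of all 32851 RefSeq promoter windows of this length, 37.4% held CCAAT, 35.7% GGGCGG, 7.15% CACGTG, 1.24% TCACNCCAC and 16.3% AGGTCA. A match is only a match of letters. The Fads2 call for KO CM against WT CM, 1 of those named above, was lost in 7 of 19 alternatives.

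Scd1 was the scarcer stearoyl-CoA desaturase transcript before differentiation, rose 43.9-fold with it, and was lower in conditioned medium, slightly with WT CM and by 3.18-fold with KO CM. Scd2, the isoform best known from brain, was already abundant, rose 1.92-fold, and fell with both media.

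Scd1 stood at 51.1, 50.3 and 46.8 CPM in the undifferentiated libraries, 2270, 2074 and 2161 CPM in regular, 1747, 1688 and 1928 CPM in WT CM and 783, 722 and 545 CPM in KO CM libraries. No 2 groups overlapped, and the order was regular, WT CM, KO CM, undifferentiated. The rise on regular differentiation was 5.46 ± 0.12 (edgeR adjusted p = 4.99e-34). The step from regular to WT CM was small, -0.28 ± 0.09 (edgeR adjusted p = 0.0142). It no longer passed without regular replicate 1 (adjusted p = 0.0738), WT CM replicate 1 (0.0542) or WT CM replicate 2 (0.08), the range over 19 alternatives being 0.00352 to 0.08. KO CM lay 1.67 ± 0.09 below regular (edgeR adjusted p = 7.14e-19) and 1.39 ± 0.09 below WT CM (9.64e-15), a level still 13.8-fold above undifferentiated cells. In such bulk RNA, fewer differentiated cells and less RNA per cell cannot be told apart.

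Scd2 stood at 600, 590 and 613 CPM in undifferentiated, 1206, 1093 and 1165 CPM in regular, 701, 663 and 773 CPM in WT CM and 401, 406 and 330 CPM in KO CM libraries. Here KO CM was the lowest group, under the undifferentiated libraries, and no groups overlapped. The rise on differentiation was 0.94 ± 0.09 (edgeR adjusted p = 4.15e-13). WT CM differed from regular by -0.69 ± 0.08 (edgeR adjusted p = 4.83e-09), and KO CM differed from regular by -1.61 ± 0.09 (5.31e-20) and from WT CM by -0.91 ± 0.09 (1.27e-10). KO CM cells thus held 62.9% of the undifferentiated level of Scd2 (-0.67 ± 0.09, edgeR adjusted p = 2.42e-08), whereas their Scd1 level was far above it. WT CM was called higher than undifferentiated cells (0.25 ± 0.09, edgeR adjusted p = 0.0153), a call that was lost in 11 of 19 alternatives, whose adjusted p ran from 0.00967 to 0.686. It was lost without WT CM replicate 3 (0.0691), undifferentiated replicate 1 (0.126) or 3 (0.0965) or regular replicate 1 (0.0725) or 2 (0.0677), and with total counts the difference was 0.045.

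**Figure D1:**
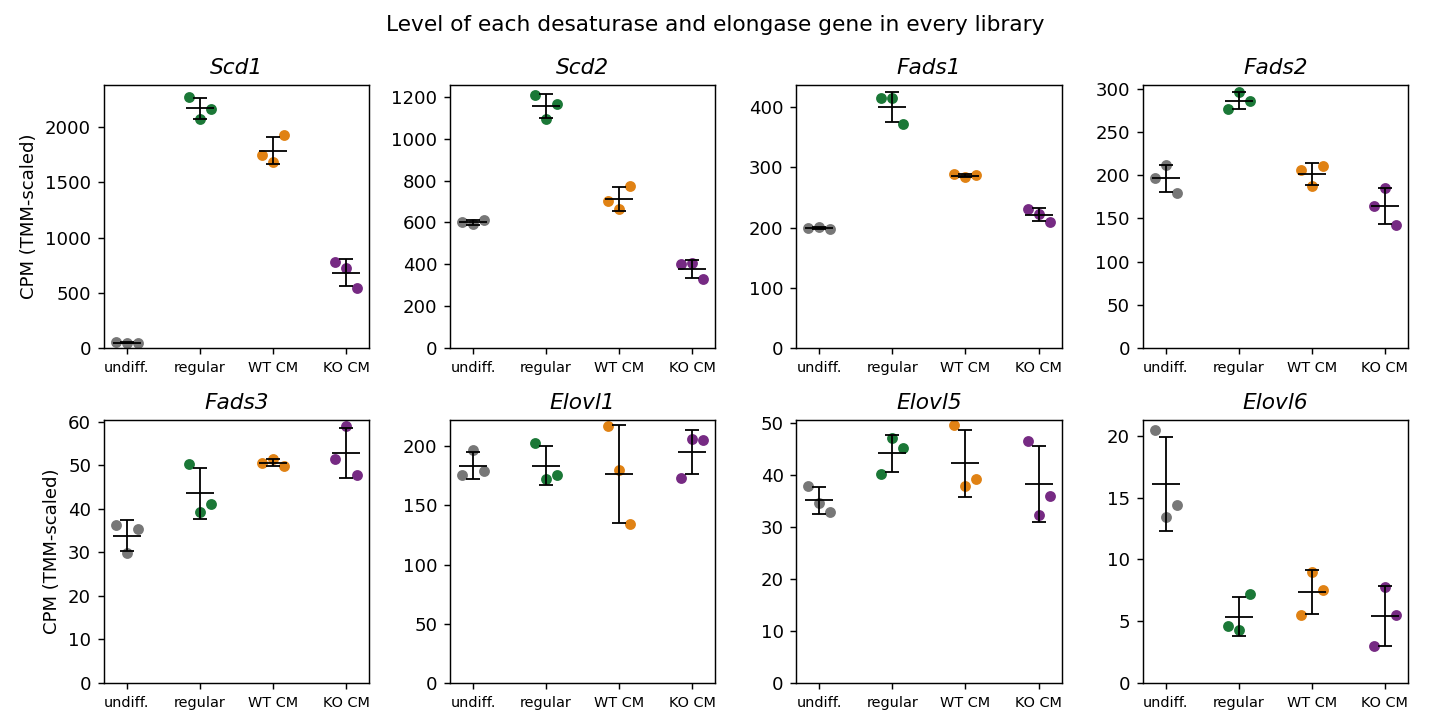
Level of each gene in CPM (linear axes from 0, 1 scale per gene) in the 3 libraries of each group, with points in the order of replicates 1 to 3 and a black bar for mean ± SD. Scd1, Scd2, Fads1 and Fads2 are highest in regular cells and lower in WT CM and KO CM cells, while Elovl6 is highest in undifferentiated cells.

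Because both genes are counted in the same libraries, the share of Scd1 among their UMIs does not depend on scaling. It was 7.84%, 7.85% and 7.09% in undifferentiated, 65.3%, 65.5% and 65.0% in regular, 71.4%, 71.8% and 71.4% in WT CM, and 66.1%, 64.0% and 62.3% in KO CM libraries. WT CM libraries all lay above regular ones, while KO CM libraries lay on both sides of them. The share was 6.26 percentage points higher in WT CM than in regular cells (71.5 ± 0.244% against 65.3 ± 0.259%, SD, n = 3, 2-sided exact permutation p = 0.1, the smallest this design allows). KO CM was 7.40 points below WT CM (64.1 ± 1.92%, exact permutation p = 0.1) and 1.14 points below regular (exact permutation p = 0.4). The exact (Clopper-Pearson) 95% counting interval of a single library spanned 59.4% to 65.1% in KO CM replicate 3 and 64.5% to 66.5% in regular replicate 2. Scd1 and Scd2 are close paralogs, and how reads shared by near copies were assigned is not given in the sources used here.

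**Figure D2:**
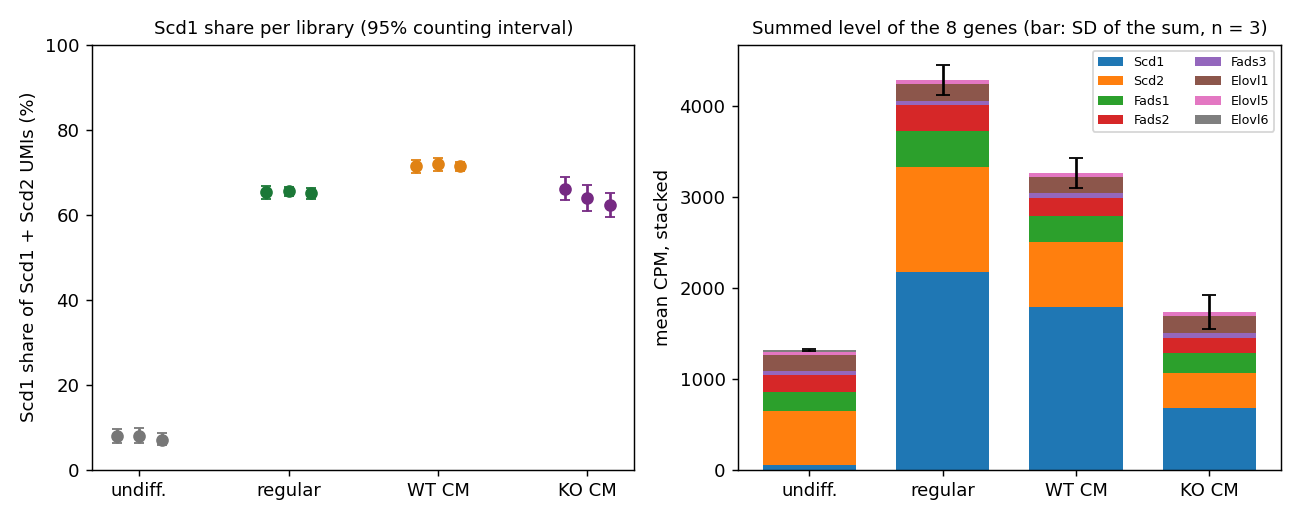
Left, share of Scd1 among Scd1 and Scd2 UMIs in percent for each library, with its exact 95% counting interval; right, mean CPM of the 8 genes stacked by group, with the SD of their sum. The share is under 8% in undifferentiated cells and between 62.3% and 71.8% in the differentiated groups, and the sum is highest in regular cells.

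Summed over the 8 genes, the level was 1315 ± 14.7 CPM in undifferentiated, 4287 ± 165 in regular, 3265 ± 165 in WT CM and 1739 ± 187 CPM in KO CM cells (SD, n = 3). Scd1 made up 3.76% of that sum before differentiation and 50.6%, 54.7% and 39.1% of it in regular, WT CM and KO CM cells. Counted by gene, 4 of the 8 rose and 1 fell on regular differentiation, against 29.6% higher and 28% lower (57.6% called) of all tested genes, with a median of 0.45 against -0.01 over all tested genes. With WT CM against regular, 4 fell and none rose (15.4% of all tested genes were lower, 17.2% higher and 32.6% called, medians -0.19 and 0.01). With KO CM against regular, the same 4 genes Scd1, Scd2, Fads1 and Fads2 fell (21% of all lower, 22.2% higher and 43.2% called, medians -0.52 and -0.00062). With KO CM against WT CM these 4 were again lower (6.62% of all lower, 5.86% higher and 12.5% called, medians -0.34 and 0.01). The 3 libraries of each group did not overlap for 7 of the 8 genes on regular differentiation (63.2% of all tested genes), 4 with WT CM (43.1%) and 4 with KO CM (51.5%) against regular, and 4 with KO CM against WT CM (26.3%). The comparisons with regular cells share those 3 libraries. With total counts in place of TMM, the higher share among all called genes moved from 51.3% to 40.3% for regular against undifferentiated, from 51.4% to 40.7% for KO CM against regular and from 47.0% to 30.3% for KO CM against WT CM. The median of all genes moved by -0.16, -0.11 and -0.08, while the split among the 8 genes was unchanged in these comparisons.

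Of the Fads genes, Fads1 and Fads2 rose on differentiation and were lower with either conditioned medium, with Fads1 and Fads2 at 1.82-fold and 1.76-fold less in KO CM than in regular cells. Fads3, which desaturates sphingoid bases, was called in none of these comparisons. Fads1 stood at 199, 201 and 198 CPM in undifferentiated, 415, 415 and 372 CPM in regular, 288, 283 and 287 CPM in WT CM and 231, 223 and 209 CPM in KO CM libraries, with no overlap between groups. It rose 2.01-fold on differentiation (1.01 ± 0.09, edgeR adjusted p = 5.70e-14), was lower than regular with WT CM (-0.49 ± 0.08, 7.11e-06) and KO CM (-0.86 ± 0.09, 2.57e-11), and was lower with KO CM than with WT CM (-0.37 ± 0.09, 0.00251). The KO CM level lay near the undifferentiated one, with a difference of 0.15 (95% interval -0.04 to 0.33, edgeR adjusted p = 0.191).

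Fads2, which catalyses the entry step of polyunsaturated synthesis, stood at 197, 212 and 180 CPM in undifferentiated, 276, 297 and 286 CPM in regular, 207, 187 and 211 CPM in WT CM and 164, 185 and 143 CPM in KO CM libraries. Regular cells were above every other library, WT CM overlapped the undifferentiated libraries, and KO CM lay just under WT CM. The rise on differentiation was 0.55 ± 0.09 (edgeR adjusted p = 2.21e-06), and the differences from regular were -0.51 ± 0.09 with WT CM (2.08e-05) and -0.82 ± 0.10 with KO CM (2.77e-09). The KO CM difference from WT CM was -0.31 ± 0.10 (edgeR adjusted p = 0.0367). It did not pass with DESeq2 (0.119), with these 2 groups alone (0.0578), or with thinned libraries (0.372). Nor did it pass without WT CM replicate 1 (0.0908) or 3 (0.112) or KO CM replicate 1 (0.0686) or 3 (0.309), the range over 19 alternatives being 0.00611 to 0.372. The authors' deposited table gives it an adjusted p of 0.145. WT CM and undifferentiated levels were not separated (0.04, 95% interval -0.15 to 0.24, edgeR adjusted p = 0.732).

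Fads1 took 50.2%, 48.7% and 52.4% of the Fads1 and Fads2 UMIs in undifferentiated libraries and 54.6% to 60.2% in the 9 differentiated ones. Among the differentiated groups the mean share was 58.3 ± 1.77% in regular, 58.7 ± 1.32% in WT CM and 57.5 ± 2.53% in KO CM cells (SD, n = 3). The share differed from regular by 0.406 points with WT CM (exact permutation p = 0.8) and by -0.797 points with KO CM (exact permutation p = 0.7), less than the SD within a group.

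Fads3 stood at 36.3, 29.8 and 35.5 CPM in undifferentiated, 50.3, 39.4 and 41.2 CPM in regular, 50.4, 51.5 and 49.8 CPM in WT CM and 51.5, 59.0 and 47.9 CPM in KO CM libraries. The regular libraries overlapped both conditioned groups. No difference among differentiated groups was called: 0.24 (95% interval -0.07 to 0.55) for WT CM and 0.30 (-0.04 to 0.63) for KO CM against regular, and 0.05 (-0.27 to 0.38) for KO CM against WT CM. Regular against undifferentiated cells gave 0.32 ± 0.16 (edgeR adjusted p = 0.0881). Both conditioned groups were called above undifferentiated cells, by 0.57 ± 0.16 (edgeR adjusted p = 0.00279) and 0.62 ± 0.17 (0.00292), neither of which passed with total counts (0.0518 and 0.0991). The estimate for KO CM against WT CM was below 0 with total counts, at -0.026.

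**Figure D3:**
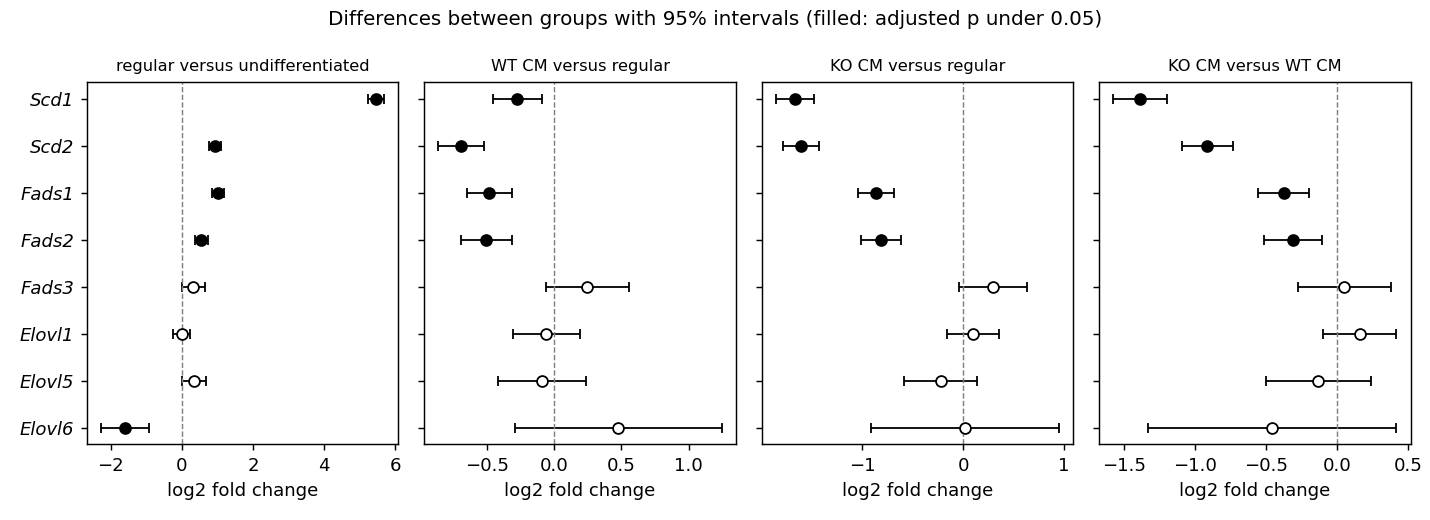
Log2 fold change of each gene in 4 comparisons with its 95% interval, filled where the edgeR adjusted p was under 0.05; each panel has its own horizontal scale. Scd1, Scd2, Fads1 and Fads2 are filled in every panel, and Elovl6 is filled only for regular against undifferentiated cells.

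Elovl6, the elongase that feeds stearoyl-CoA desaturase, fell 3.04-fold on differentiation while Scd1 rose, and Elovl1 and Elovl5 were called in none of the 6 comparisons, with 1 exception among the alternatives, Elovl1 for WT CM against undifferentiated cells with total counts (-0.27, edgeR adjusted p = 0.0392). Elovl6 was counted in few molecules, 36, 19 and 28 UMIs in undifferentiated, 5, 11 and 12 in regular, 8, 14 and 17 in WT CM and 3, 7 and 7 in KO CM libraries. As levels these were 20.4, 13.5 and 14.4 CPM, then 4.57, 4.29 and 7.16 CPM, 5.45, 9.01 and 7.49 CPM, and 2.97, 7.79 and 5.49 CPM. Undifferentiated libraries lay above all others, and the differentiated groups overlapped one another. The fall was -1.60 ± 0.33 for regular cells (edgeR adjusted p = 5.72e-05), -1.13 ± 0.31 for WT CM (0.00226) and -1.58 ± 0.38 for KO CM (0.000593) against undifferentiated cells, and the WT CM call did not pass with thinned libraries (0.0757). Between differentiated groups the intervals were wide: -0.29 to 1.25 for WT CM and -0.91 to 0.95 for KO CM against regular, and -1.33 to 0.42 for KO CM against WT CM. The last of these contains the differences of -0.37 and -0.31 seen for Fads1 and Fads2, which were not detectable for Elovl6 at this depth. Gm35986 on the opposite strand and Gm43072 overlap Elovl6, and whether counting used strand is not given in the sources used here.

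Elovl5 stood at 38.0, 34.7 and 32.9 CPM in undifferentiated, 40.2, 47.2 and 45.3 CPM in regular, 49.8, 38.0 and 39.2 CPM in WT CM and 46.6, 32.3 and 36.1 CPM in KO CM libraries. Only the undifferentiated and regular libraries did not overlap, at 0.35 ± 0.17 (95% interval 0.01 to 0.69, edgeR adjusted p = 0.0721). The interval was -0.42 to 0.23 for WT CM and -0.59 to 0.14 for KO CM against regular cells. The difference between KO CM and WT CM was -0.13 ± 0.18 (edgeR adjusted p = 0.739). For KO CM against regular, the lower end of its interval lay above the estimates of -0.86 and -0.82 for Fads1 and Fads2, the other enzymes of its route.

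Elovl1 stood at 175, 197 and 179 CPM in undifferentiated, 203, 172 and 176 CPM in regular, 217, 180 and 134 CPM in WT CM and 173, 206 and 206 CPM in KO CM libraries, with overlap between every pair of groups. Its differences were -0.01 ± 0.12 on differentiation (95% interval -0.26 to 0.24), -0.06 ± 0.12 for WT CM (-0.31 to 0.19) and 0.10 ± 0.13 for KO CM against regular (-0.16 to 0.36). The lowest value was in WT CM replicate 3, without which WT CM against regular gave 0.12 (edgeR adjusted p = 0.454). Elovl1 overlaps the last 53 bases of Cdc20, a cell cycle gene on the opposite strand, which fell from 58.9 ± 10.5 to 22.4 ± 3.23 CPM on differentiation (-1.42 ± 0.18, edgeR adjusted p = 5.22e-09), and reads from the 2 genes cannot be told apart there without strand.

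Beside the 8 genes, other members of the pathway were examined in 6 lists. Of 10 other desaturase and elongase genes, 5 were counted and 2 tested. Tmem189, which makes the vinyl ether bond of plasmalogens, rose from 20.6 to 71.0 CPM on differentiation (1.77 ± 0.18, edgeR adjusted p = 1.17e-11) and was lower with WT CM (-1.11 ± 0.17, 4.80e-07) and KO CM (-0.93 ± 0.18, 2.97e-05) than in regular cells. Degs1, the dihydroceramide desaturase, rose by 0.38 ± 0.08 and was lower by -0.33 ± 0.08 and -0.34 ± 0.09. Neither differed by call between KO CM and WT CM. The rest were under the filter. Scd3, a close copy of Scd1, had no UMIs in undifferentiated libraries (a floor of 0.586 CPM for 3 UMIs over the group), 28 in regular, 9 in WT CM and 2 in KO CM libraries, and Elovl3, an elongase of brown fat, had none, 18, 6 and 2. Elovl4, an elongase of very long chains in retina and skin, had 16, 5, 1 and 2 UMIs in the same order.

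Of the other enzymes of the elongation cycle, 2 of 5 tested were called on differentiation, both higher (57.6% of all tested genes called, 29.6% higher), and these were the dehydratase genes Hacd2 (6.89 to 65.0 CPM, 3.17 ± 0.22, edgeR adjusted p = 6.01e-17) and Hacd1 (0.38 ± 0.15, 0.0258). With WT CM 1 of 5 fell, Hacd1 (-0.40 ± 0.15, edgeR adjusted p = 0.0298), and with KO CM 2 of 5, Hacd1 (-0.51 ± 0.16, 0.00993) and the final reductase Tecr (-0.34 ± 0.08, 0.00066), where 15.4% and 21% of all tested genes were lower. Hacd2 stayed 2.89 ± 0.23 and 2.92 ± 0.24 above undifferentiated cells with WT CM and KO CM. The Hacd1 call on differentiation was lost in 7 of 19 alternatives, among them without undifferentiated replicate 2 (0.0849) or 3 (0.166) or regular replicate 1 (0.0847) or 2 (0.185). That with WT CM was lost in 5, with DESeq2 (0.0817) and without regular replicate 1 (0.0548) or 2 (0.136) or WT CM replicate 1 (0.102) or 3 (0.0856). That with KO CM was lost without KO CM replicate 3 (0.0697). None of 5 was called between KO CM and WT CM (12.5% of all tested genes).

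Desaturases draw electrons from NADH or NADPH through cytochrome b5 reductase and cytochrome b5. Of 5 tested genes of this chain, 2 rose and 3 fell on differentiation (29.6% and 28% of all tested genes). Cyb5a, the microsomal cytochrome b5, was at 169 CPM before and 646 CPM after differentiation (1.93 ± 0.10, edgeR adjusted p = 7.57e-22). Cyb5b, the mitochondrial form, rose by 0.58 ± 0.10. Cyb5r4 and Cyb5r1 fell, at -0.82 ± 0.23 and -0.66 ± 0.10, and the Cyb5r4 call was lost with thinned libraries (edgeR adjusted p = 0.104). Cyb5a was lower than regular with WT CM (332 CPM, -0.97 ± 0.09, edgeR adjusted p = 7.95e-12) and with KO CM (255 CPM, -1.35 ± 0.10, 4.71e-16), and lower with KO CM than WT CM (-0.38 ± 0.10, 0.00548), a call lost with thinned libraries (0.0989) and without KO CM replicate 3 (0.0709). The reductase gene Cyb5r3 went the other way, from 959 CPM in regular to 1529 with WT CM (0.67 ± 0.08, edgeR adjusted p = 1.89e-09) and 1819 CPM with KO CM (0.92 ± 0.08, 1.40e-13). Of the 5, 1 was higher and 3 lower with WT CM (17.2% and 15.4% of all tested genes), and 1 higher and 2 lower with KO CM (22.2% and 21%), than in regular cells.

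Genes that supply the chains to be modified rose with differentiation in 8 of 8 cases (29.6% of all tested genes), at a median of 1.43 against -0.01 over all tested genes. The highest were Acacb (2.26 ± 0.43, edgeR adjusted p = 2.92e-05) and Fasn (1.91 ± 0.38, 3.82e-05), the fatty acid synthase gene, both counted at few molecules. With WT CM 5 of 8 fell relative to regular cells (15.4% of all tested genes), led by the NADPH-producing malic enzyme gene Me1 (-0.65 ± 0.10, edgeR adjusted p = 1.53e-06) and the acetyl-CoA carboxylase gene Acaca (-0.63 ± 0.13, 9.96e-05). With KO CM 7 of 8 fell (21% of all tested genes), led by Fasn (13.4 to 3.74 CPM, -1.92 ± 0.44, edgeR adjusted p = 0.000364) and the citrate carrier gene Slc25a1 (934 to 373 CPM, -1.32 ± 0.09, 1.26e-17). In addition 5 of 8 were lower with KO CM than with WT CM (6.62% of all tested genes), among them Fasn (-1.68 ± 0.45, 0.00817) and Acss2 (-1.22 ± 0.18, 1.26e-06), which makes acetyl-CoA from acetate. That Fasn call was lost without KO CM replicate 3 (0.124). Medians were -0.55, -1.03 and -0.43 in these 3 comparisons, against 0.01, -0.00062 and 0.01 over all tested genes.

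Of 9 tested regulators of lipid synthesis, 6 rose and 1 fell on differentiation (29.6% and 28% of all tested genes), led by the adipogenic receptor gene Pparg (32.8 to 803 CPM, 4.61 ± 0.11, edgeR adjusted p = 2.28e-34) and Nr1h3 (3.63 ± 0.16, 1.29e-23), which encodes the oxysterol receptor LXR alpha. Srebf2 was lower (-0.77 ± 0.15, edgeR adjusted p = 2.36e-05). With WT CM 4 were lower than in regular cells and 1 higher (15.4% and 17.2% of all tested genes), with Pparg at -0.71 ± 0.08 (edgeR adjusted p = 2.25e-09), Rxra, its partner receptor, at -0.53 ± 0.10 (1.49e-05) and Insig2 at 0.42 ± 0.15 (0.0267). The Insig2 call was lost in 7 of 19 alternatives, with DESeq2 (0.14), with thinned libraries (0.25), and without regular replicate 1 (0.0629), 2 (0.0722) or 3 (0.0612) or WT CM replicate 1 (0.0533) or 2 (0.0627). With KO CM 5 were lower and 2 higher (21% and 22.2% of all tested genes), with Pparg at -1.57 ± 0.09 (edgeR adjusted p = 1.10e-19), Nr1h3 at -1.08 ± 0.13 (1.66e-09), Scap at 0.38 ± 0.16 (0.0432) and Nr1h2 at 0.33 ± 0.12 (0.0237). The last 2 calls were each lost in 7 of 19 alternatives, including total counts (0.163 and 0.146) and DESeq2 (0.15 and 0.127). Scap lost it without regular replicate 2 (0.0924) or 3 (0.174) or KO CM replicate 1 (0.225) or 2 (0.127), and Nr1h2 without regular replicate 1 (0.0521) or 3 (0.0833) or KO CM replicate 2 (0.0821) or 3 (0.0864). Between KO CM and WT CM 4 were lower (6.62% of all tested genes), with Pparg at -0.87 ± 0.09 (edgeR adjusted p = 5.18e-10) and Insig1 at -0.63 ± 0.21 (0.0455). The Insig1 call was lost in 11 of 19 alternatives, among them without WT CM replicate 1 (0.0526) or 3 (0.343), KO CM replicate 1 (0.162), 2 (0.124) or 3 (0.0789), undifferentiated replicate 1 (0.0532), 2 (0.06) or 3 (0.0556), or regular replicate 3 (0.0592). Srebf1, whose SREBP-1c product is a known activator of Scd1 and Fads genes, was named after its values were seen. It stood at 43.0 ± 2.11, 247 ± 22.5, 179 ± 5.49 and 131 ± 17.7 CPM in undifferentiated, regular, WT CM and KO CM cells, which is the same order among the differentiated groups as Scd1. Other genes shared this order, among them Pparg (803, 491 and 270 CPM) and Nr1h3 (135, 97.6 and 64.5 CPM). Whether Srebf1 had a part in the Scd1 or Fads levels was not tested.

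Of 9 genes that activate acyl chains or place them in phospholipids, 4 rose and 4 fell on differentiation (29.6% and 28% of all tested genes). Acsl1, the main acyl-CoA synthetase of adipocytes, was at 20.2 CPM before and 1745 CPM after differentiation (6.43 ± 0.13, edgeR adjusted p = 1.91e-35), and was 963 CPM with WT CM (-0.86 ± 0.09, 2.90e-10) and 436 CPM with KO CM (-2.00 ± 0.10, 2.51e-21). The phospholipase gene Pla2g6 rose by 1.58 ± 0.16 and was also lower with WT CM (-0.57 ± 0.14) and KO CM (-1.07 ± 0.17). Its WT CM call was lost with thinned libraries (edgeR adjusted p = 0.193). Lclat1, an acyltransferase of cardiolipin remodelling, fell on differentiation (-0.72 ± 0.16), as did Acsl5 (-0.91 ± 0.18), and was higher with WT CM (0.78 ± 0.16, edgeR adjusted p = 7.02e-05) and KO CM (1.05 ± 0.16, 5.80e-07). Acsl4, which prefers arachidonate, was higher with WT CM (0.69 ± 0.24, edgeR adjusted p = 0.0251). This call was lost in 6 of 19 alternatives, with DESeq2 (0.157), with thinned libraries (0.131), and without regular replicate 2 (0.148) or 3 (0.0959) or WT CM replicate 1 (0.0555) or 3 (0.121). In all 3 were higher and 3 lower with WT CM (17.2% and 15.4% of all tested genes), 1 higher and 4 lower with KO CM against regular cells (22.2% and 21%), and 3 lower with KO CM against WT CM (6.62%), led by Acsl1 (-1.15 ± 0.10, edgeR adjusted p = 4.55e-12) and Acsl3 (-0.66 ± 0.21, 0.025). The Acsl3 call was lost in 4 of 19 alternatives, with DESeq2 (0.0934), with thinned libraries (0.104), and without WT CM replicate 3 (0.0783) or KO CM replicate 3 (0.195).

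**Figure D4:**
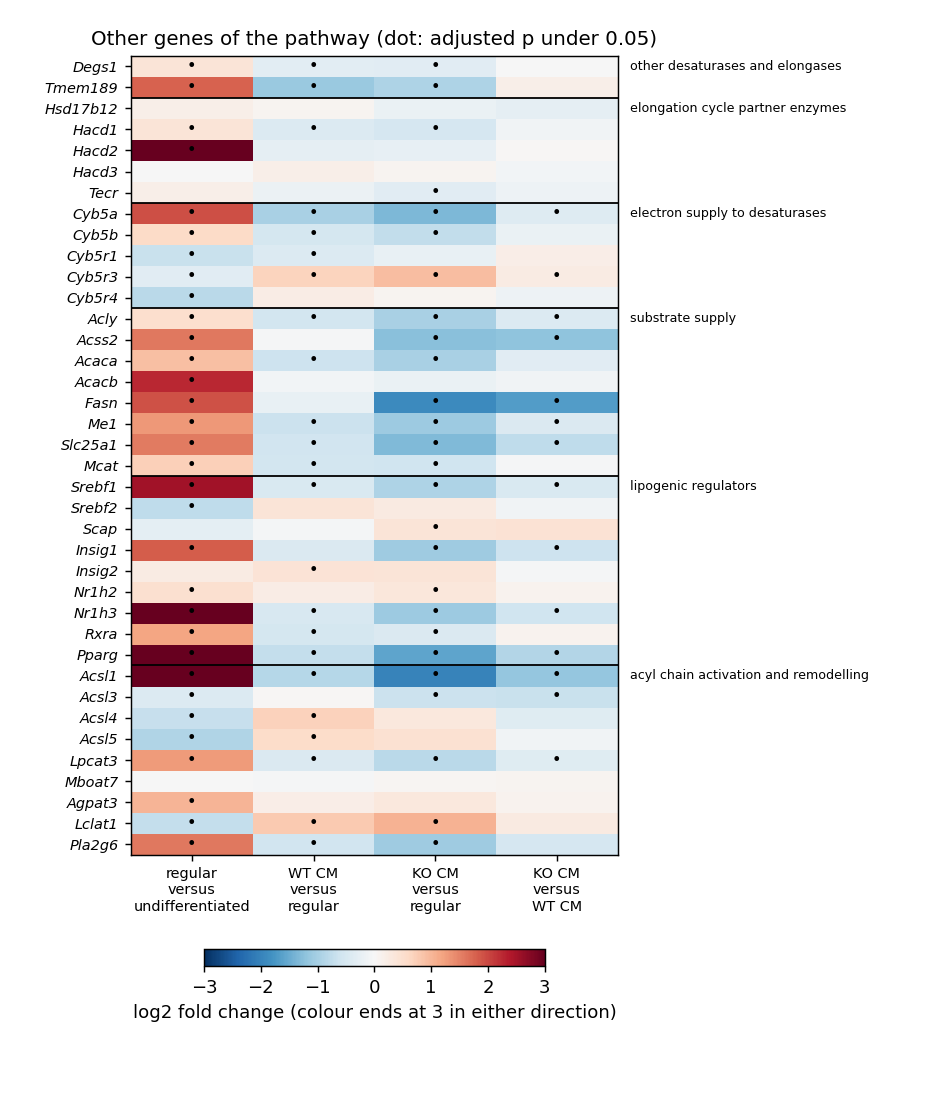
Log2 fold changes of the tested genes of the 6 pathway lists (rows, grouped by list) in 4 comparisons (columns), red for higher and blue for lower, with a dot where the edgeR adjusted p was under 0.05. Substrate supply is red in all 8 rows on regular differentiation and carries dots for lower levels in 5 of 8 with WT CM and 7 of 8 with KO CM, while Cyb5r3 and Lclat1 are red in both conditioned media.

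For each of the 8 genes the closest patterns among all other tested genes were found as the smallest root mean square difference between centred log2 CPM profiles over the 12 libraries. The nearest to Scd1 were the beta-adrenergic receptor gene Adrb3 (0.22), Cyb561 (0.23) and Cebpa (0.25), where the median over all tested genes was 2.18. Adrb3 had no UMIs in undifferentiated cells, so its log2 level there is set by the prior count of 2 and its distance to Scd1 depends on that value. Among the nearest to Scd2 were Dhcr7, the last enzyme of cholesterol synthesis (0.13), and Psat1 (0.18), with a median of 0.69. Fads1 lay close to Il17rc (0.07) and Chchd3 (0.08). Fads2 lay closest to Mlf2 (0.08), Smdt1 (0.11) and Mrps5 (0.11), and Fads3 to Fibp (0.10), Pfdn5 (0.10) and Yy1 (0.11). Elovl6 was nearest to Ablim1 (0.21), Aldh1l2 (0.29) and Sesn2 (0.30). Elovl1 was nearest to Eif1 (0.10), Snx27 (0.11) and Map2k3 (0.12), and Elovl5 to Ermard (0.10), 4921524J17Rik (0.11) and Hnrnph3 (0.11), with medians of 0.42 for both. As Elovl1 and Elovl5 were called in no comparison, nearness to them marks little difference between groups and not a shared change. Dhcr7 stood at 59.6, 126, 76.9 and 46.3 CPM in undifferentiated, regular, WT CM and KO CM cells, with KO CM lowest as for Scd2.

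Against undifferentiated cells, the conditioned groups split the 8 genes further. With WT CM 4 were called higher and 1 lower (27.9% and 20.7% of all tested genes, 48.6% called), and with KO CM 2 were higher and 3 lower (26% and 17.7%, 43.7% called). Libraries did not overlap for 5 of the 8 genes in each (54.6% and 51.5% of all tested genes). With KO CM the 2 higher were Scd1 (3.79 ± 0.11, edgeR adjusted p = 2.05e-28) and Fads3, and the 3 lower were Scd2, Fads2 (-0.26 ± 0.10, 0.0322) and Elovl6. The Fads2 call, whose libraries overlapped, did not pass without undifferentiated replicate 2 (0.135) or KO CM replicate 1 (0.0607) or 3 (0.275), the range over 19 alternatives being 1.99e-05 to 0.275. With total counts the higher share among all called genes moved from 57.4% to 38.8% for WT CM and from 59.6% to 33.1% for KO CM. The 8 genes were then split 2 higher and 2 lower with WT CM and 1 higher and 3 lower with KO CM. The authors' deposited table made the same call as here in 46 of 48 pairings of gene and comparison, the others being Fads2 for KO CM against WT CM and Scd2 for WT CM against undifferentiated cells (authors' adjusted p = 0.0993).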

How the data were processed

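MARS-seq libraries (3′ ends, 30 ng of RNA per sample, molecules marked with UMIs) were made from 12 samples, per the labels' protocols. Tools named in the submitters' processing notes are DESeq2, HTSeq and cutadapt, with no version, and the build is mm10; the aligner and gene annotation are not given in the sources used here. The authors' raw columns are UMI counts per gene without normalization, per the file headers. Log2 fold changes and adjusted p-values of the authors for 6 comparisons stand in the same deposited table and are quoted only where named. A total of 24 columns of other per-sample values were not used.

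The test was edgeR 4.0.16 under R 4.3.3 (filterByExpr, TMM, robust quasi-likelihood, 1 coefficient per group, all 12 libraries sharing 1 estimate of the spread, Benjamini-Hochberg over 9378 genes). SEs and intervals were derived from the F statistic. The common biological coefficient of variation was 9.38%. DESeq2 1.42.0 was an alternative. The test was also run on simulated data, with an outcome that is not reported here. Counting intervals and floors (3 UMIs) cover counting error only. Named beyond the 8 genes were, per list and comparison, the 2 called genes with the largest change in each direction, and the 3 nearest patterns per gene, some of which are not reported here. Members and lists were chosen with earlier results of these data known.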

Additional observations from a re-analysis of the deposited data

How the results depend on the processing

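The alternatives were total counts or RLE factors in place of TMM, no filter, DESeq2, only the 2 groups compared, a replicate block, libraries thinned to the smallest total, and each library left out in turn. Over the 8 genes in 6 comparisons, 849 of the alternative values kept direction and side of the threshold, 27 lost the call, 1 gained it and 34 changed sign, none of the latter for a called value of the 8 genes. The 4 lower genes with KO CM against regular and the 5 called on regular differentiation were called under every alternative run, and 3 or 4 were called with WT CM against regular and with KO CM against WT CM. With thinned libraries 3 were called for WT CM against undifferentiated, and 778 genes for KO CM against WT CM in place of 1171, a count that ran from 756 (without KO CM replicate 3) to 1200 when a library was left out and was 782 with DESeq2. With the replicate block the counts of the 8 genes called were 5, 4, 4, 4, 5 and 5, as without it, and 5373 genes in all were called for regular against undifferentiated. Same-numbered libraries shared only a number, and 4 of 12 libraries correlated best with their own number (18 correlations of deviations from group means, -0.0657 to 0.0553).

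Uncalled log2 values changed sign as follows, and the cause was not tested. With total counts Elovl1 was -0.017 and Elovl6 -0.092 for KO CM against regular, Fads3 -0.026 for KO CM against WT CM, Fads2 -0.16 for WT CM against undifferentiated, and Fads1 -0.13, Elovl1 -0.19 and Elovl5 -0.15 for KO CM against undifferentiated. The list gene Slc25a1, called at 0.23 in that comparison, was -0.050 with total counts. Elovl6 for KO CM against regular was -0.0068 with RLE and -0.013 with DESeq2. Fads2 for WT CM against undifferentiated was -0.015 with RLE, -0.011 with no filter, -0.015 with DESeq2, -0.0017 with the 2 groups alone and -0.13 thinned. Thinned libraries gave 0.0081 for Elovl5 with WT CM against regular, -0.087 for Fads3 with KO CM against WT CM and -0.026 for Elovl1 with KO CM against undifferentiated. With a library left out, Elovl1 ran from -0.13 to 0.042 on differentiation, -0.23 to 0.12 for WT CM against regular, -0.022 to 0.33 for KO CM against WT CM, -0.24 to 0.11 for WT CM and -0.0045 to 0.17 for KO CM against undifferentiated. Elovl6 ran from -0.27 to 0.29 for KO CM against regular, Fads3 from -0.028 to 0.13 for KO CM against WT CM, Fads2 from -0.076 to 0.10 for WT CM and Elovl5 from -0.027 to 0.22 for KO CM against undifferentiated. Differences in Scd1 share kept their sign in every alternative run, and with a library left out ran from 6.12 to 6.37 points for WT CM and -2.14 to -0.219 for KO CM against regular. Elovl6 was counted at 3 to 36 UMIs per library, and thinning ended calls of Elovl6, Scd2 and Fads2 in 1 comparison each.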

Other observations

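Set against the summed level of 8 adipocyte markers in the same library, a ratio chosen after the data were seen, the groups ranked differently from gene to gene. Scd2 stood at 3.65, 3.53 and 3.72 CPM per 100 CPM of markers in regular, 3.55, 3.36 and 3.99 in WT CM and 3.62, 3.68 and 3.43 in KO CM libraries, so the 3 groups overlapped. The difference from regular cells was -0.0022 with WT CM (exact permutation p = 1) and -0.06 with KO CM (exact permutation p = 0.6, n = 3 per group). The sum is weighted towards abundant markers, Fabp4 alone being at 14691 CPM in regular cells, and the ratio depends on the marker. Per 100 CPM of Fabp4, Scd2 stood at 7.82 to 7.92 in regular, 5.6 to 6.81 in WT CM and 5.45 to 5.96 in KO CM libraries. Per 100 CPM of Adipoq it stood at 16.8 to 18 in regular, 20.2 to 24.4 in WT CM and 21.4 to 23 in KO CM libraries.

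Scd1 was higher by this ratio with WT CM, at 8.85, 8.56 and 9.94, than in regular cells, at 6.88, 6.70 and 6.90 (exact permutation p = 0.1, the smallest possible), and 7.06, 6.53 and 5.67 with KO CM. In regular, WT CM and KO CM cells mean Scd1 was 2168, 1788 and 683 CPM, and mean Fabp4 14691, 11534 and 6586 CPM. From regular to KO CM, Scd1 thus fell more than Fabp4, and also more than Lpl (824 to 451 CPM) and Cebpa (268 to 91.1). It fell less than Adipoq (6633 to 1702 CPM), Plin1 (261 to 70.7), Cidec (3479 to 367), Cfd (4559 to 1120) and Retn (1047 to 196). The ratio of Scd1 to single markers was not tested. By the ratio to the summed markers, Fads1 was 1.26 ± 0.0773 in regular, 1.46 ± 0.0219 in WT CM and 2.09 ± 0.0806 in KO CM cells (SD, n = 3). Fads2 was 0.903 ± 0.0621, 1.03 ± 0.0702 and 1.55 ± 0.109 in the same order. Both were higher with KO CM than in regular cells by this ratio (exact permutation p = 0.1 each), although their CPM was lower. Fads1, Fads2 and Scd2 were also present nearly without the markers, at means of 199, 196 and 601 CPM in undifferentiated cells. For such genes the ratio rises where the marker sum falls, so it does not measure a level per adipocyte. The ratio is not given for undifferentiated cells, where the markers summed to 110 to 141 CPM.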
